A study of Arabidopsis thaliana with 15 samples.

Results

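Closed flower buds of 2 Arabidopsis thaliana lines, each named for its own mutant allele of the gene REF6, were compared with each other. The comparison uses 3 ref6C libraries and 3 ref6-3 libraries, 6 of the 15 libraries of the series. All plants were of the Col0 background, 5 weeks old, untreated and grown in long days; neither line carries another named mutation, and what the lesion is in each is not stated in the labels. The same series holds 3 libraries each of elf6-3ref6C, of elf6-3ref6Cjmj13G and of wild type (WT), which carry the ref6C allele with elf6-3, the ref6C allele with elf6-3 and jmj13G, and none of these alleles. They entered the fit for the filter on low counts, the scaling of the libraries and the estimate of the spread, but not the contrast. For some genes their levels are given beside those of the 2 lines. The labels number the replicates and do not say whether they came from separate plants, so a p-value here covers only the spread among the libraries sequenced, and that spread may be technical.

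REF6 is a JmjC-domain histone demethylase that removes methyl groups from lysine 27 of histone H3. Polycomb repressive complexes set these marks on developmental genes, which stay silent while the marks last. REF6 finds its targets through zinc fingers that read a short DNA motif, and it acts with the related enzymes ELF6 and JMJ13 in flowering time, floral organ growth and reproduction. A closed bud holds sepals, petals, stamens and carpels of several ages at once. In such bulk RNA, fewer cells of a type and less RNA per cell cannot be told apart.

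The libraries held 27550895 to 29530251 counts in ref6C and 26113603 to 28777299 counts in ref6-3. Of these, ref6C replicate 3 stood apart, and the authors left it out of their own statistics, per the file headers. It registered 29547 genes with at least 1 count, whereas the other 14 libraries registered 25055 to 25712. There were 1732 genes with a count in that library alone, 1176 of them transposable element genes, and together they held 5532 counts, with a median of 2 counts a gene; the other libraries had 21 to 56 such genes each. Transposable element genes took 3071.9 CPM, counts scaled to a common library total, in it and 2338 to 2590 CPM in the others. Results are given with all 3 ref6C libraries, and beside the count of a gene list stands the count without ref6C replicate 3 where that differed. Of 249 genes called among those named by rule or listed by function, 233 had the same call without it and 0 turned round; the median absolute difference in log2 fold change was 0.020. The floral organ identity genes AP1, AP3, PI, AG and SEP3 were present in all 6 libraries (93.6 CPM or more), and of the 8 genes of seed maturation on the list, 2 passed the filter on low counts.

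Of 22411 genes tested with edgeR's quasi-likelihood test, 33.9% differed between ref6C and ref6-3 at a Benjamini-Hochberg adjusted p below 0.05. Of all tested genes, 3844 (17.2%) were up in ref6C and 3759 (16.8%) down. These shares are the background for the count of each gene list below. The ref6C and ref6-3 libraries did not overlap in 22.6% of genes with ref6C on the higher side and in 22.3% with ref6C on the lower side. Most differences were small, since 782 genes (3.49%) passed 2-fold upward and 222 (0.991%) passed it downward. Without ref6C replicate 3, 29.5% of 22586 genes differed: 3119 (13.8%) were up and 3539 (15.7%) down, of which 701 (3.1%) and 264 (1.17%) passed 2-fold. Both fits placed 3040 genes (13.6%) up and 3313 (14.8%) down. Among these, 671 (2.99%) passed 2-fold upward in both fits and 193 (0.861%) downward, 864 (3.86%) in all, and 0 genes called in both fits changed sign. Which side held more genes at any size depended on the setting, as it also turned without ref6-3 replicate 3 (3037 up and 3532 down) and with other size factors. Genes past 2-fold were mostly up in ref6C in every setting run. The log2 fold change of 88 of the 22411 genes differed by over 1 between the 2 fits; in all 88 it was higher with ref6C replicate 3, and 21 of the 88 were transposable element genes.

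**Figure D1:**
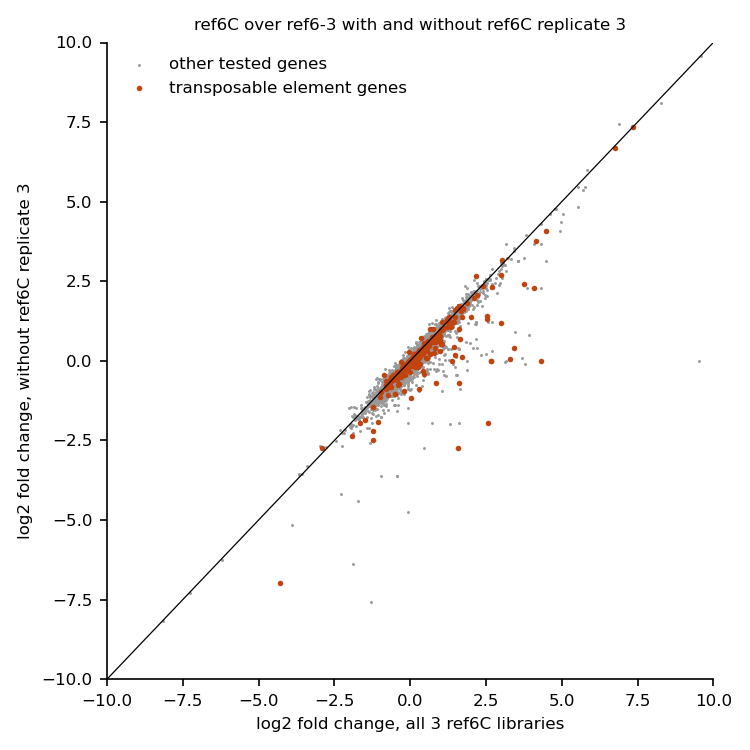
Log2 fold change of ref6C over ref6-3 for each of 22411 tested genes, with all 3 ref6C libraries on the x axis and without ref6C replicate 3 on the y axis; red points are transposable element genes and the line marks equal values. Points below the line were higher with that library, among them the 88 genes that moved by over 1.

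The transcripts of the demethylase genes differed little between the lines. REF6 (AT3G48430, chromosome 3, 17935256 to 17940792 in TAIR10.1) had 35.8, 36.7 and 36.5 CPM in the ref6C libraries, against 31.6, 32.7 and 34.4 CPM in the ref6-3 libraries, and 68.4, 71.7 and 68.2 CPM in WT. Both mutant lines were thus near the same level, below every WT library, and their libraries did not overlap. The log2 fold change of ref6C over ref6-3 was 0.14 ± 0.046 (SE), adjusted p = 0.018, and the call ended without ref6C replicate 3 (adjusted p = 0.063) and without any of 3 other libraries. JMJ30, another H3K27 demethylase gene, was 0.19 ± 0.059 higher (adjusted p = 0.013), with the call lost in 3 alternatives. Of the 5 demethylase genes tested these 2 were called higher and 0 lower, and 1 was higher without ref6C replicate 3. ELF6 (log2 fold change -0.09, adjusted p = 0.075) and JMJ13 (0.04, adjusted p = 0.58) were not called. Protein was not measured.

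The writers and readers of the Polycomb mark stayed close as well. Of 10 tested genes of Polycomb repressive complex 2 and its partners, 1 was higher and 1 lower, both by less than 2-fold, and the median log2 fold change was 0.003, beside 0.002 over all tested genes. LHP1, which binds the methylated histone, had a log2 fold change of -0.18 ± 0.045 (adjusted p = 0.0029). VIN3, a partner in the silencing of FLC, was 0.28 ± 0.10 (adjusted p = 0.027), a call that ended in 5 alternatives. Of 16 genes of DNA methylation and silencing, 1 was higher and 3 were lower, beside 17.2% and 16.8% of all tested genes. DCL3, which cuts precursors of small RNAs that direct DNA methylation, was -0.25 ± 0.032 (adjusted p = 2.8e-07). The DNA methyltransferase gene CMT3 was -0.16 ± 0.032 (adjusted p = 2.7e-04).

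The anther and pollen genes split by list. Genes of the tapetum, the nurse tissue of the anther, and of the outer pollen wall that it builds were lower in ref6C. Genes of the pollen coat, of the maturing pollen grain and of the pollen tube were mostly higher. The late tapetum fell on both sides, with the factor gene MS1 lower and the pollen coat genes higher. Of 10 genes of the tapetum cascade, 10 were lower and 0 higher (median log2 fold change -0.28), and of 12 genes of sporopollenin and the pollen wall, 12 were lower and 0 higher (median -0.53). Of 9 pollen coat genes 9 were higher (median 0.66), and of 25 pollen tube genes 21 were higher and 1 lower (median 1.203, and 1.07 without ref6C replicate 3), 15 of them at least 2-fold higher. Without ref6C replicate 3 these counts were 9 and 12 lower, 9 higher, and 20 higher with 0 lower.

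In the tapetum cascade the differences were below 2-fold and in 1 direction. MS1, a PHD-finger factor of the late tapetum, had 16.6, 17.1 and 15.5 CPM in the ref6C libraries, against 23.9, 24.6 and 25.1 CPM in the ref6-3 libraries. The groups did not overlap, and its log2 fold change was -0.58 ± 0.046 (SE), adjusted p = 5.5e-11. AMS, a bHLH factor that turns on the wall genes, had 179, 170.4 and 177 CPM in the ref6C libraries, against 208, 206 and 210.2 CPM in the ref6-3 libraries (-0.25 ± 0.030 (SE), adjusted p = 1.9e-07). Its partners bHLH010 and bHLH091 were at -0.32 ± 0.036 (adjusted p = 6.1e-08) and -0.29 ± 0.049 (adjusted p = 3.4e-05). DYT1, near the top of the cascade, was the call that ended without ref6C replicate 3 (adjusted p = 0.12); it is named after its values were seen.

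The enzymes that make sporopollenin, the polymer of the outer pollen wall, were lower by a larger margin. MS2, a fatty acyl reductase, had 206, 191 and 197 CPM in the ref6C libraries, against 363, 372 and 373 CPM in the ref6-3 libraries, and 380.2, 404 and 399.8 CPM in WT. Both lines were below every WT library, ref6-3 by little and ref6C by much more, and the log2 fold change of ref6C over ref6-3 was -0.90 ± 0.028 (SE), adjusted p = 8.9e-20. The fatty acid hydroxylase gene CYP703A2 was at -0.69 ± 0.032 (adjusted p = 4.1e-16), ABCG26, the exporter of wall precursors, at -0.63 ± 0.031 (adjusted p = 2.3e-15) and the polyketide synthase gene LAP6 at -0.57 ± 0.029 (adjusted p = 3.6e-15). The summed level of the 12 genes was 1643 to 1728 CPM in ref6C, 2427 to 2443 CPM in ref6-3 and 2405 to 2446 CPM in WT, so ref6-3 lay within the WT range and ref6C below it. QRT3, which separates the pollen grains, and RPG1, of the wall pattern, differed least, at -0.08 ± 0.030 and -0.20 ± 0.046.

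The promoter of MS2 is printed because it is the gene of this list with the smallest adjusted p and because its 250 bases hold both motifs searched in all promoters. The sequence is from the RefSeq TAIR10.1 genome, chr3:3813981-3814230, plus strand; capitals mark a G-box (CACGTG), the element that bHLH factors bind, which starts 201 bases before the gene, and on the other strand a match to the REF6 motif (CTCTGTTT, CTCTGTTC, CTCTGCTT or CTCTGCTC on either strand), which starts 113 bases before the gene.
MS2 promoter: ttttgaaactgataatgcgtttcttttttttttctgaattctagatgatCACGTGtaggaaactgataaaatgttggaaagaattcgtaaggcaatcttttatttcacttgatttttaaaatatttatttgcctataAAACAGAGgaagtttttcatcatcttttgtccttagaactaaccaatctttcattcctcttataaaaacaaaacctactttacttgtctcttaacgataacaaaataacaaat
The REF6 motif was in 5.77% and the G-box in 6.49% of the 27443 promoters of protein-coding genes cut in the same way. Among the 12 genes of the sporopollenin list, 2 promoters held the REF6 motif and 1 held the G-box. Of the protein-coding genes at least 2-fold apart in both fits, 26 of 626 promoters of higher genes (4.15%) and 6 of 178 of lower genes (3.37%) held the REF6 motif; the G-box was in 58 (9.27%) and 13 (7.3%). A match shows only that the letters are in the window, and a promoter without one says nothing of what binds there.

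Of 17 meiosis genes tested, 5 were lower and 0 higher, beside 16.8% lower among all genes. The count was also 5 without ref6C replicate 3, with MLH3 no longer called and ASY1 called lower, both named after their values were seen, and the median log2 fold change was -0.14 there and -0.25 with all libraries. The recombination gene HEI10 was the largest, at -1.59 ± 0.067, but it overlaps MRD1 on the other strand and is described with it below. The synaptonemal complex genes ZYP1a (-0.25 ± 0.081) and ZYP1b (-0.27 ± 0.074, adjusted p = 0.0063) are near-identical copies, and the division of reads between such copies is not stated in the labels or headers. MSH4, of the crossover pathway, was at -0.37 ± 0.11 (adjusted p = 0.012). The calls of MSH4 and ZYP1a ended in 3 alternatives each, and leaving out 1 library at a time left 3 to 5 of the 17 called lower.

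The pollen coat genes, which the late tapetum deposits on the grain, stood at high levels and were all higher in ref6C. GRP17, an oleosin of the coat, had 1177, 1183 and 1194 CPM in the ref6C libraries, against 719, 703 and 704 CPM in the ref6-3 libraries, and 1078, 1136 and 1114 CPM in WT. The ref6C libraries were above and the ref6-3 libraries below the WT libraries, and the log2 fold change was 0.74 ± 0.028 (SE), adjusted p = 6.1e-18. GRP16 had 111, 115 and 115 CPM in the ref6C libraries, against 54.9, 54.7 and 57.6 CPM in the ref6-3 libraries (1.03 ± 0.033 (SE), adjusted p = 2.0e-19). The coat lipase genes EXL6 and EXL4 were at 0.66 ± 0.031 (adjusted p = 7.8e-16) and 0.54 ± 0.027 (adjusted p = 3.2e-15). The 6 GRP genes lie in 1 run on chromosome 5, between 2377703 and 2391439 in TAIR10.1, and all 6 were higher. As FPKM, the deposited level per length, GRP19 was the most abundant member in both lines, with a mean of 1936 in ref6C and 1252 in ref6-3.

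The MIKC-star MADS factors, which drive the gene programme of maturing pollen, followed the same direction: of 5 tested, 4 were higher and 0 lower (median 0.80). AGL104 had 4.77, 5.68 and 5.40 CPM in the ref6C libraries, against 2.73, 2.17 and 2.21 CPM in the ref6-3 libraries (1.15 ± 0.12 (SE), adjusted p = 1.3e-08). AGL94 (0.86 ± 0.11), AGL66 (0.80 ± 0.18) and AGL30 (0.20 ± 0.047) were higher as well, and AGL65 was not called (0.21, adjusted p = 0.095). All 4 called members were also called without ref6C replicate 3.

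Among the pollen tube genes, wall enzymes, actin-binding proteins and a calcium pump were more than 2-fold higher in ref6C. VGD1 and PPME1 are pectin methylesterases of the tube wall, and VGD1 had 262, 253 and 259.8 CPM in the ref6C libraries, against 86.8, 80.2 and 84.5 CPM in the ref6-3 libraries, with 316, 318 and 312 CPM in WT. The ref6C libraries were nearer to WT than the ref6-3 libraries, and the log2 fold change was 1.62 ± 0.029 (SE), adjusted p = 3.8e-25; PPME1 was at 1.64 ± 0.044 (adjusted p = 3.0e-21). PRF4, a profilin that binds actin monomers, had 27.05, 27.3 and 26.4 CPM in the ref6C libraries, against 11.0, 10.9 and 11.8 CPM in the ref6-3 libraries (1.26 ± 0.056 (SE), adjusted p = 2.7e-16). ACA9, a calcium pump of the pollen membrane, had 19.9, 18.6 and 19.6 CPM in the ref6C libraries, against 6.59, 7.41 and 7.64 CPM in the ref6-3 libraries (1.42 ± 0.065 (SE), adjusted p = 5.1e-16). ACA9 reached 27.4, 28.7 and 28.7 CPM in WT, above both lines, whereas PRF4 was at 26.9, 26.6 and 24.0 CPM there, level with ref6C. The receptor kinase gene ANX1 (0.10, adjusted p = 0.36), the calcium-dependent kinase gene CPK17 (-0.30, adjusted p = 0.60) and the factor gene MYB97 (0.21, adjusted p = 0.73) were not called. MYB101, the 1 member called lower (-0.15 ± 0.056, adjusted p = 0.042), had overlapping libraries and was not called without ref6C replicate 3 (adjusted p = 0.15); it is named after its values were seen.

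**Figure D2:**
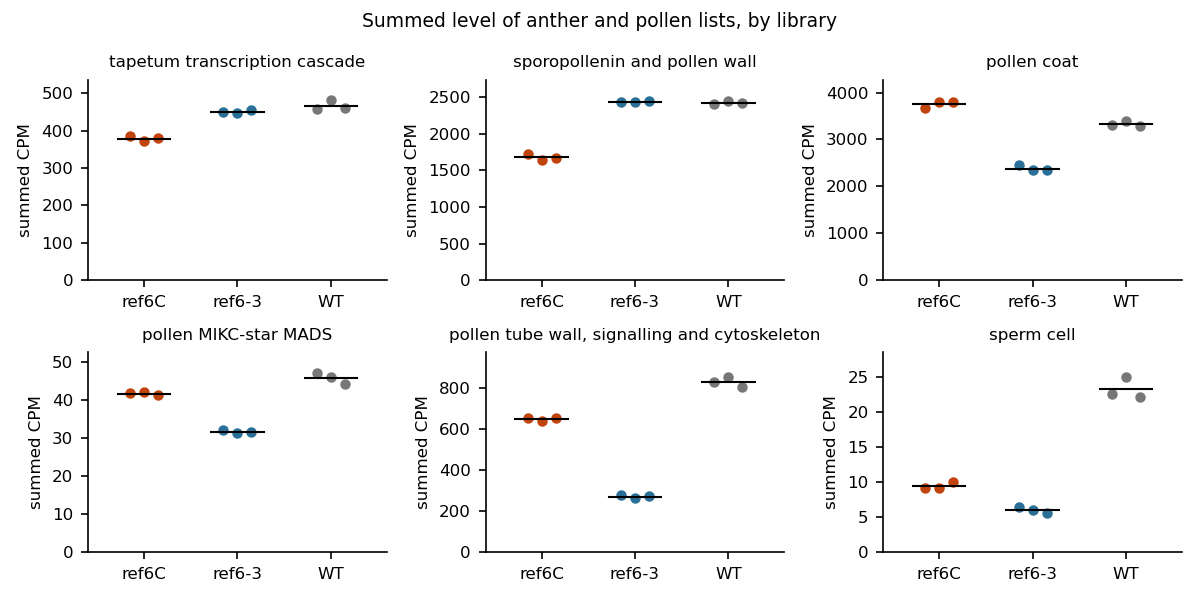
Summed TMM-normalized CPM of 6 lists of anther and pollen genes, from the tapetum to the sperm cell, in each library of ref6C, ref6-3 and WT; points are libraries and bars are means. The tapetum and sporopollenin sums were lower in every ref6C library than in every ref6-3 library, and the other 4 sums were higher.

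Hexose transporters of the STP family went both ways. Of 10 tested, 5 were higher and 3 lower. STP9, a glucose carrier of pollen, had 103, 94.2 and 99.0 CPM in the ref6C libraries, against 40.7, 40.4 and 40.2 CPM in the ref6-3 libraries (1.29 ± 0.037 (SE), adjusted p = 1.4e-20), and STP6, a carrier of the late pollen grain, was at 1.30 ± 0.058 (adjusted p = 2.9e-16). STP4, a monosaccharide carrier of sink tissue, was higher as well (0.65 ± 0.045, adjusted p = 3.9e-12). STP1, a carrier of vegetative tissue and guard cells, had 36.2, 39.1 and 38.1 CPM in the ref6C libraries, against 63.4, 56.5 and 64.3 CPM in the ref6-3 libraries, a log2 fold change of -0.70 ± 0.043 (SE), adjusted p = 3.3e-13. Its ref6-3 libraries were above those of WT (56.2, 53.7 and 53.1 CPM) and its ref6C libraries below.

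Sperm cell genes were low in both lines, and some of them, such as PCR11, were near the detection limit. Of 7 tested, 5 were higher and 0 lower; without ref6C replicate 3 the counts were 4 higher and 1 lower of 8, and leaving out 1 library at a time gave 3 to 5 higher. DAF1, a target of the sperm regulator DUO1, had 3.03, 2.74 and 2.57 CPM in the ref6C libraries, against 0.674, 0.483 and 0.382 CPM in the ref6-3 libraries (2.43 ± 0.17 (SE), adjusted p = 6.0e-12), with 13.96, 14.6 and 14.1 CPM in WT. DAZ2, another target, had 0.818, 0.710 and 0.435 CPM in the ref6C libraries, against 0.299, 0.172 and 0.191 CPM in the ref6-3 libraries (1.56 ± 0.37 (SE), adjusted p = 0.0017), and the call of its relative DAZ1 (1.36 ± 0.41) ended in 3 alternatives. PCR11 had 0.0681, 0.135 and 0.217 CPM in ref6C and 0 counts in all 3 ref6-3 libraries. With ref6-3 set to 3 counts over the group, the ref6C mean was 3.81-fold higher. That ratio allows for counting error in ref6-3 only. The ref6C mean also rests on few counts and was raised most by replicate 3. The median log2 fold change of the 7 was 1.36 with either the fitted value of PCR11 or that ratio. This median depended on which genes and libraries were kept. Without ref6C replicate 3 it was 1.44 over the same 7 genes and 0.93 over the 8 then tested. Over all listed members tested, leaving out 1 library at a time gave 0.74 to 1.16, and the 1 CPM filter gave 0.35. The summed level of the list was 9.16 to 9.96 CPM in ref6C, 5.57 to 6.47 CPM in ref6-3 and 22.2 to 24.9 CPM in WT, so both lines were below WT.

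Stamen MYB factors and floral terpene synthases were among the largest differences. Of 8 tested genes 6 were higher in ref6C and 0 lower, 4 of them at least 2-fold (median log2 fold change 0.91). MYB21 and MYB24 act downstream of jasmonate in filament elongation and anther opening. MYB21 had 5.01, 4.02 and 4.78 CPM in the ref6C libraries, against 0.112, 0.345 and 0 CPM in the ref6-3 libraries, and 11.5, 11.5 and 12.5 CPM in WT. Expression in ref6-3 was near 0 and that in ref6C was below WT; the log2 fold change was 4.82 ± 0.28 (SE), adjusted p = 6.4e-14. MYB24 had 1.46, 1.76 and 1.52 CPM in the ref6C libraries, against 0, 0.103 and 0.0764 CPM in the ref6-3 libraries (4.60 ± 0.41 (SE), adjusted p = 4.8e-10), and 5.46, 5.23 and 5.81 CPM in WT. The folds of MYB21 and MYB24 rest on few counts in ref6-3, and their SE understates that error. MYB108, another jasmonate-dependent stamen factor, was low in both lines and not called (-0.01, adjusted p = 0.99).

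Each of the MYB genes has an antisense neighbour inside it or around it, and the labels and headers do not say whether strand was used in counting. MYB21 shares 987 bases of chromosome 3 (10307417 to 10308403 in TAIR10.1) with AT3G27809, which was 3.20 ± 0.50 higher (adjusted p = 9.5e-06). MYB24 lies within AT5G40348 for all its 2591 bases on chromosome 5 (16138544 to 16141134), and that gene was called higher too (adjusted p = 0.00026). Reads of the partners cannot be told apart in these counts if the counting ignored strand. The promoter of MYB21 is shown because no other gene lies in it and because it had the largest log2 fold change of the list; it is chr3:10305599-10305848, plus strand, from RefSeq TAIR10.1, and has no match to either motif and hence no capitals.
MYB21 promoter: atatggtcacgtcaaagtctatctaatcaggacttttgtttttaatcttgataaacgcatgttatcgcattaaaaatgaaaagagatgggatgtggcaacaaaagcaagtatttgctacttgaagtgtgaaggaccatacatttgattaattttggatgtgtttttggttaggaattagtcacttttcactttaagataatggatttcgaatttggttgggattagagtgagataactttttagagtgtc

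The floral volatiles split by gene. TPS14, a linalool synthase, had 13.1, 14.8 and 13.5 CPM in the ref6C libraries, against 1.46, 1.76 and 1.68 CPM in the ref6-3 libraries, and 14.03, 12.6 and 12.2 CPM in WT, so that ref6C was at the WT level and ref6-3 far below it (3.07 ± 0.11 (SE), adjusted p = 1.0e-18). TPS11, a sesquiterpene synthase that MYB21 and MYB24 are known to control, had 76.9, 74.2 and 73.8 CPM in the ref6C libraries, against 55.9, 54.9 and 57.5 CPM in the ref6-3 libraries, a smaller difference of 0.42 ± 0.034 (SE), adjusted p = 8.5e-11. TPS14 overlaps AT1G61670 on the other strand. TPS10, the other linalool synthase, was not called (-0.11, adjusted p = 0.18).

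Transcripts of most jasmonate synthesis genes were modestly higher in ref6C, and jasmonate itself was not measured. Of 13 tested genes, 9 were higher and 1 lower, all by less than 2-fold (median 0.20), and the counts were the same without ref6C replicate 3. LOX2, the lipoxygenase of the chloroplast, had 2263, 2091 and 2166 CPM in the ref6C libraries, against 1786, 1738 and 1777 CPM in the ref6-3 libraries (0.30 ± 0.030 (SE), adjusted p = 6.1e-09). AOC4, an allene oxide cyclase, had 195, 194 and 195 CPM in the ref6C libraries, against 146, 139.6 and 143 CPM in the ref6-3 libraries (0.45 ± 0.027 (SE), adjusted p = 1.7e-13). LOX4 was at 0.64 ± 0.067 (adjusted p = 1.5e-08) and the allene oxide synthase gene AOS at 0.34 ± 0.052 (adjusted p = 9.1e-06). Of 12 JAZ genes, the repressors that jasmonate removes and also induces, 7 were higher and 1 lower (median 0.15), and 6 and 1 without ref6C replicate 3. JAZ3 (0.53 ± 0.044), JAZ5 (0.47 ± 0.045), JAZ1 (0.36 ± 0.051) and JAZ6 (0.17 ± 0.027) had adjusted p-values of 1.4e-10, 2.3e-09, 2.5e-06 and 1.2e-05. JAZ8 was the 1 called lower (-0.68 ± 0.21, adjusted p = 0.012), and is named after its values were seen. WT was above both lines in the mean of 9 of the 12 JAZ genes. The G-box that the jasmonate factor MYC2 binds was in 4 of the 12 JAZ promoters, beside 6.49% of all promoters. Larger shares were found in other lists, with 5 of 12 circadian clock and 3 of 8 seed maturation promoters.

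**Figure D3:**
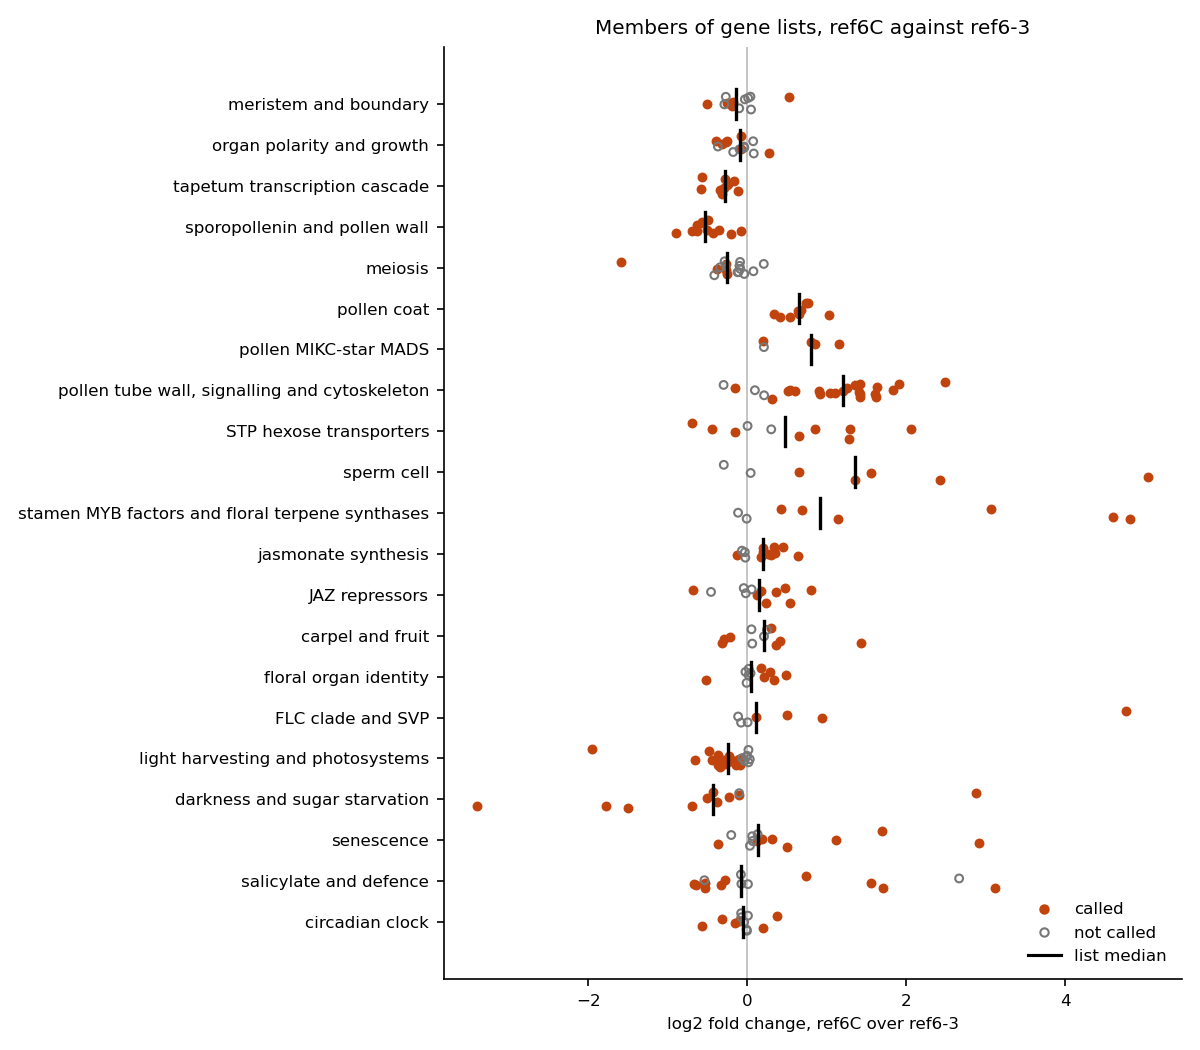
Log2 fold change of ref6C over ref6-3 for each tested member of 21 gene lists; filled red points were called at an adjusted p below 0.05, open points were not, and black bars are list medians. The medians of the tapetum, sporopollenin, light harvesting and starvation lists lie left of 0 and those of the pollen coat, MIKC-star and pollen tube lists right of it; PCR11 (sperm cell) and FMO1 (salicylate) are fitted values of genes with 0 counts in ref6-3.

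MAF5 had the largest log2 fold change of the 12 highest genes named by rule. It is a MADS-box gene of the FLC clade, whose members repress flowering. It had 17.8, 20.5 and 19.0 CPM in the ref6C libraries, against 0.636, 0.586 and 0.878 CPM in the ref6-3 libraries, and 7.82, 7.54 and 8.35 CPM in WT. The ref6-3 libraries were below and the ref6C libraries above all WT libraries, with no overlap between any pair of the 3 groups (4.77 ± 0.13 (SE), adjusted p = 1.9e-21). MAF5 was at 11.5 ± 1.1 CPM in elf6-3ref6C and 10.3 ± 0.64 CPM in elf6-3ref6Cjmj13G (SD, n = 3 each), means that were also above WT. Its neighbours on chromosome 5 (MAF2 to MAF5 lie between 25982254 and 26002619 in TAIR10.1) differed far less. MAF4, next to it, had 2.42, 2.23 and 2.75 CPM in the ref6C libraries, against 1.198, 1.55 and 1.07 CPM in the ref6-3 libraries (0.94 ± 0.18 (SE), adjusted p = 1.8e-04), MAF3 was not called (-0.08, adjusted p = 0.23), and the call of MAF2 (0.11 ± 0.039) ended without ref6C replicate 3 and in 5 other alternatives. FLC itself had 7.73, 8.11 and 8.84 CPM in the ref6C libraries, against 6.06, 5.79 and 5.57 CPM in the ref6-3 libraries, a log2 fold change of 0.50 ± 0.086 (SE), adjusted p = 4.1e-05; AT5G01675 overlaps it in antisense. MAF1 and SVP were not called. The promoter of MAF5 is printed as the region next to this difference, chr5:25997254-25997503, plus strand, RefSeq TAIR10.1; it has no match to either motif.
MAF5 promoter: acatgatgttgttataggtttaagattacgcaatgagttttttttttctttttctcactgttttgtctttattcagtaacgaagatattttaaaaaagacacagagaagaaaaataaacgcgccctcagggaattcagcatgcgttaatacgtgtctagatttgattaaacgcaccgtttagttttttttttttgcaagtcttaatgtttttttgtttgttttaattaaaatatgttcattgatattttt

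Genes that set meristem and organ identity differed by less than 2-fold. Of 9 flowering integrators and meristem identity genes, 1 was higher and 4 lower (median -0.26); without ref6C replicate 3 these were 1 and 3 (median -0.36). LFY, which specifies the floral meristem, had 3.82, 4.46 and 4.82 CPM in the ref6C libraries, against 7.60, 7.03 and 7.90 CPM in the ref6-3 libraries (-0.78 ± 0.093 (SE), adjusted p = 1.3e-07). SOC1 (-0.40 ± 0.043) and the bZIP factor gene FD (-0.67 ± 0.10) were lower, with adjusted p-values of 2.0e-08 and 3.3e-06, and AP1 was 0.12 ± 0.027 higher (adjusted p = 7.7e-04). LFY, SOC1 and FD were higher in every ref6-3 library than in every ref6C library, and LFY and SOC1 in ref6C were near or below their WT levels (4.89, 4.44 and 5.05 and 43.4, 45.8 and 44.7 CPM).

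Of 11 floral organ identity genes, 5 were higher and 1 lower. The petal and stamen genes AP3 (0.21 ± 0.026, adjusted p = 2.3e-07) and PI (0.17 ± 0.026, adjusted p = 8.2e-06) and the carpel and fruit gene SHP1 (0.49 ± 0.048, adjusted p = 4.8e-09) were higher, and SEP4 was lower (-0.52 ± 0.052, adjusted p = 4.8e-09). AG and SEP1 to SEP3 were not called. Of 11 carpel and fruit genes, 4 were higher and 3 lower, and 3 and 3 without ref6C replicate 3. IND, which sets the valve margin of the fruit, had 0.954, 0.946 and 0.978 CPM in the ref6C libraries, against 0.299, 0.414 and 0.344 CPM in the ref6-3 libraries (1.43 ± 0.27 (SE), adjusted p = 1.3e-04). ALC, which acts with IND in fruit opening, was 0.37 ± 0.034 higher (adjusted p = 1.1e-09), while the carpel gene CRC (-0.29 ± 0.035, adjusted p = 1.4e-07) and NGA1, of the style (-0.22 ± 0.040, adjusted p = 7.4e-05), were lower.

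Among 12 meristem and boundary genes, 1 was higher and 4 lower, beside 17.2% and 16.8% of all tested genes. WUS, which keeps the stem cells of the meristem, had 17.0, 18.4 and 18.9 CPM in the ref6C libraries, against 12.2, 12.2 and 13.3 CPM in the ref6-3 libraries (0.52 ± 0.070 (SE), adjusted p = 8.9e-07). CUC3, of organ boundaries, had 5.42, 5.07 and 5.29 CPM in the ref6C libraries, against 7.26, 7.58 and 7.48 CPM in the ref6-3 libraries (-0.50 ± 0.083 (SE), adjusted p = 2.3e-05); the stem cell receptor gene CLV1 was at -0.18 ± 0.044 (adjusted p = 0.0022). The call of KNAT6 (-0.19 ± 0.053) ended without ref6C replicate 1. Of 14 organ polarity and growth genes, 1 was higher and 6 lower, and 0 and 4 without ref6C replicate 3. FIL, which marks the lower side of organs, had 81.3, 76.7 and 77.9 CPM in the ref6C libraries, against 98.4, 97.4 and 96.7 CPM in the ref6-3 libraries (-0.31 ± 0.028 (SE), adjusted p = 8.9e-10), and ANT, which promotes organ growth, was at -0.27 ± 0.026 (adjusted p = 2.1e-09). AS2 (-0.39 ± 0.061) and KAN1 (-0.25 ± 0.054), of the upper and lower side, were lower as well (adjusted p = 1.1e-05 and 6.1e-04).

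Genes of darkness and sugar starvation, which plants turn on when carbon runs short, were lower in ref6C. Of 11 tested members, 9 were lower and 1 higher (median log2 fold change -0.43); without ref6C replicate 3, 8 were lower and 1 higher. SEN1, a dark-induced gene, had 0.715, 0.811 and 0.616 CPM in the ref6C libraries, against 7.63, 6.93 and 8.21 CPM in the ref6-3 libraries (-3.40 ± 0.13 (SE), adjusted p = 1.4e-17). ASN1, an asparagine synthetase gene induced in the dark, had 16.04, 15.7 and 16.8 CPM in the ref6C libraries, against 58.3, 54.1 and 54.4 CPM in the ref6-3 libraries (-1.78 ± 0.042 (SE), adjusted p = 2.0e-22). DIN10, a raffinose synthase family gene, had 36.4, 37.4 and 37.4 CPM in the ref6C libraries, against 105, 105 and 104 CPM in the ref6-3 libraries (-1.498 ± 0.034 (SE), adjusted p = 6.1e-23). The ref6C libraries were the lowest in all 3 genes: WT had 8.33, 8.21 and 8.90 CPM of SEN1, 113, 117 and 113 of ASN1 and 126, 121 and 124 of DIN10. TPS8, a trehalose phosphate synthase family gene that sugar represses, was at -0.69 ± 0.050 (adjusted p = 7.9e-12). DIN2, a beta-glucosidase gene, was the 1 member higher, with 0.920, 1.08 and 1.34 CPM in the ref6C libraries, against 0.150, 0.138 and 0.153 CPM in the ref6-3 libraries (2.89 ± 0.42 (SE), adjusted p = 3.1e-06), and is named after its values were seen. The summed level of the list was 271 to 273 CPM in ref6C, 437 to 442 CPM in ref6-3 and 547 to 548 CPM in WT. In elf6-3ref6C, ASN1 was at 15.5 ± 0.34 CPM and in elf6-3ref6Cjmj13G at 8.37 ± 0.29 CPM (SD, n = 3 each).

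**Figure D4:**
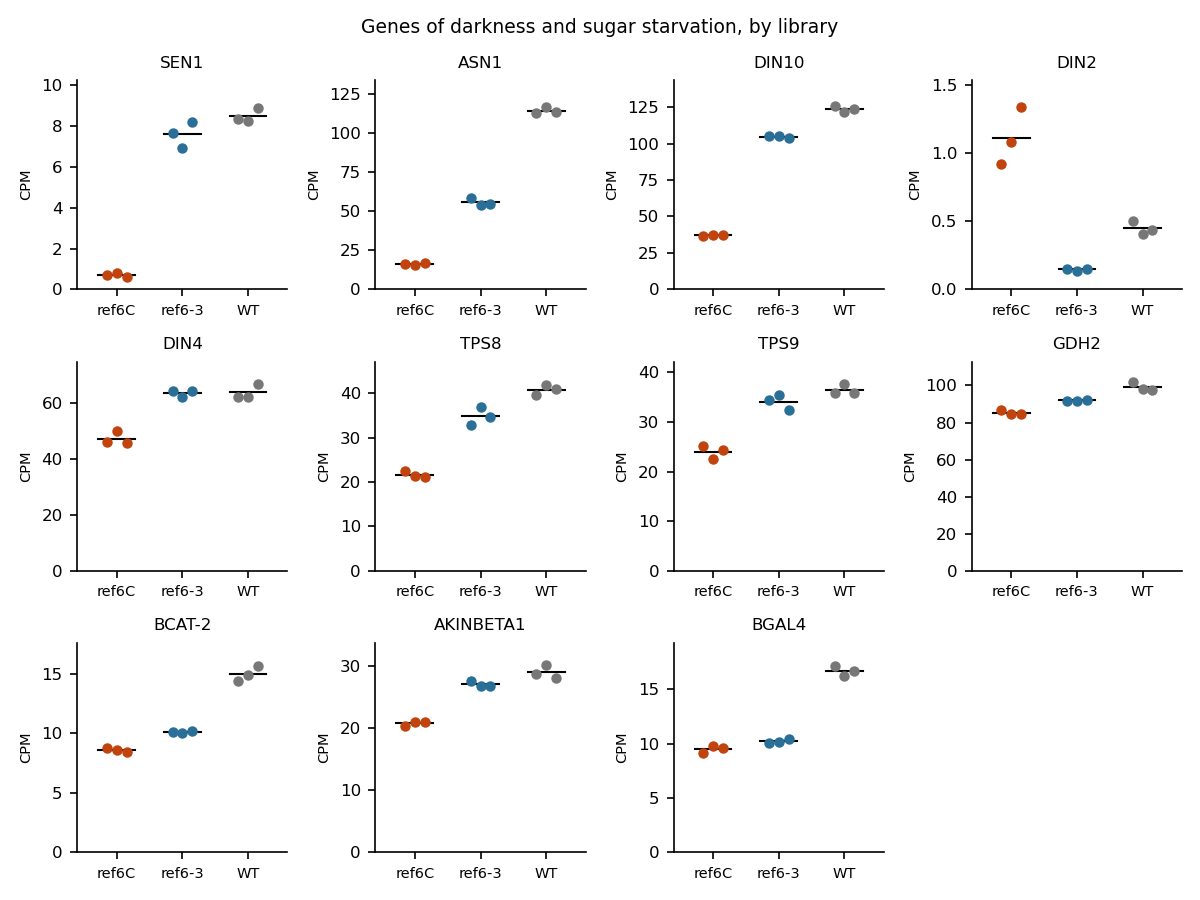
TMM-normalized CPM of the 11 genes of darkness and sugar starvation in each library of ref6C, ref6-3 and WT; points are libraries, bars are means and each axis starts at 0. The ref6C libraries lie below the ref6-3 libraries in 10 of 11 genes, DIN2 being the exception, and BGAL4 was not called.

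The ASN1 promoter is shown because it is the 1 promoter of the 11 with a G-box, the core that bZIP and bHLH factors share. It is chr3:17441432-17441681, minus strand, from RefSeq TAIR10.1, written from the distal end to the gene; the capitals mark the G-box, which starts 167 bases before the gene, and AT3G47341 overlaps the window.
ASN1 promoter: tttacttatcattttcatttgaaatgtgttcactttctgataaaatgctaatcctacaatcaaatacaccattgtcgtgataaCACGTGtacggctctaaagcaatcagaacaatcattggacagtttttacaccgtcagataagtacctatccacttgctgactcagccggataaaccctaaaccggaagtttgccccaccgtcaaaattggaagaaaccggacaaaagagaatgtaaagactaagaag

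The genes named only for their size included QQS and GPT2, which have known ties to starch or sugar, and AT3G15450 and BT5. AT3G15450, an aluminium-induced family protein, had 46.3, 46.3 and 46.3 CPM in the ref6C libraries, against 221, 225 and 221 CPM in the ref6-3 libraries (-2.26 ± 0.034 (SE), adjusted p = 4.0e-26), with 223, 209 and 212 CPM in WT. BT5, a BTB and TAZ domain gene, was at -2.196 ± 0.14 (adjusted p = 1.1e-12). On the higher side were QQS, a gene found only in Arabidopsis thaliana that acts on starch content, and GPT2, a plastid carrier of glucose 6-phosphate that sugar induces. QQS had 61.1, 66.3 and 58.6 CPM in the ref6C libraries, against 5.54, 6.03 and 5.76 CPM in the ref6-3 libraries, with 41.9, 40.1 and 44.4 CPM in WT (3.42 ± 0.062 (SE), adjusted p = 6.6e-25). GPT2 had 16.8, 15.4 and 15.9 CPM in the ref6C libraries, against 3.03, 3.27 and 3.09 CPM in the ref6-3 libraries, with 12.2, 11.0 and 9.66 CPM in WT (2.35 ± 0.088 (SE), adjusted p = 5.7e-18). For both genes ref6C was above and ref6-3 below every WT library. AT3G15450 and BT5 have antisense partners that overlap them (AT3G15460 and AT4G37608). ERD5, a proline dehydrogenase gene near QQS, was lower (-1.59 ± 0.030, adjusted p = 1.4e-24).

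Light harvesting and photosystem genes, the markers of green tissue in the bud, were slightly lower in ref6C: 21 of 28 were lower and 0 higher, with a median of -0.24. LHB1B1, a chlorophyll-binding protein of photosystem II, had 16.9, 20.1 and 19.5 CPM in the ref6C libraries, against 77.2, 69.2 and 72.3 CPM in the ref6-3 libraries (-1.95 ± 0.066 (SE), adjusted p = 5.9e-19). LHCB2.3 (-0.65 ± 0.034), LHCA1 (-0.36 ± 0.027) and LHCA3 (-0.30 ± 0.022) followed, with adjusted p-values of 9.5e-15, 2.1e-11 and 8.3e-12. LHB1B1 was the 1 member at least 2-fold lower; the CAB, LHB1B and RBCS genes have near-identical copies, among which the counting could divide reads unevenly. PORA, which makes the chlorophyll precursor in dark-grown seedlings, had 1.12, 0.980 and 0.905 CPM in the ref6C libraries, against 7.34, 6.24 and 7.22 CPM in the ref6-3 libraries (-2.78 ± 0.14 (SE), adjusted p = 1.8e-15). Leaving out 1 library at a time left 16 to 21 of the 28 called lower.

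Cell wall growth genes divided by family. All of the 8 genes called higher among 21 expansin and xyloglucan endotransglucosylase genes were expansins, and of the 7 called lower, 6 were xyloglucan endotransglucosylases. EXPA15 had 149, 150.3 and 153 CPM in the ref6C libraries, against 84.3, 82.0 and 87.0 CPM in the ref6-3 libraries (0.84 ± 0.029 (SE), adjusted p = 1.0e-18). EXPA1 had 87.3, 90.7 and 92.2 CPM in the ref6C libraries, against 44.3, 42.5 and 41.5 CPM in the ref6-3 libraries (1.07 ± 0.038 (SE), adjusted p = 1.4e-18), and EXPA8 was at 1.59 ± 0.059. On the other side XTH16 had 86.4, 91.1 and 87.0 CPM in the ref6C libraries, against 169, 174 and 176 CPM in the ref6-3 libraries (-0.97 ± 0.032 (SE), adjusted p = 3.3e-19). The summed level of the 21 was 1805 to 1855 CPM in ref6C, 2322 to 2386 CPM in ref6-3 and 2103 to 2180 CPM in WT. EXPA6 was the expansin called lower (-0.35 ± 0.026, adjusted p = 1.5e-11), and is named after its values were seen. The REF6 motif was in 5 of the 21 promoters, beside 5.77% of all promoters; this list and the JAZ list are singled out for these shares after their values were seen.

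Gibberellin genes moved both ways, 6 higher and 7 lower of 17, and 7 and 7 without ref6C replicate 3. GASA4, a gibberellin-induced peptide gene, had 444, 434 and 436 CPM in the ref6C libraries, against 273, 289 and 269.8 CPM in the ref6-3 libraries (0.66 ± 0.030 (SE), adjusted p = 4.4e-16). Among the DELLA repressors, RGL1 (0.37 ± 0.028) and RGL2 (0.41 ± 0.034) were higher and RGA was lower (-0.25 ± 0.027), with adjusted p-values of 2.7e-11, 1.1e-10 and 2.0e-08. Of 10 brassinosteroid genes, 2 were higher and 1 lower, beside 17.2% and 16.8% of all tested genes. ROT3, a hydroxylase of the pathway, was at 0.29 ± 0.054 (adjusted p = 9.8e-05). The calls of BR6OX2 and of the receptor gene BRI1 ended without ref6-3 replicate 3.

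Senescence genes were higher in 7 of 13 cases and lower in 1, and higher in 6 and lower in 1 without ref6C replicate 3. SAG13, a dehydrogenase gene of senescing leaves, had 3.27, 3.18 and 3.91 CPM in the ref6C libraries, against 0.262, 0.483 and 0.611 CPM in the ref6-3 libraries (2.92 ± 0.25 (SE), adjusted p = 3.6e-10), and SAG21 had 4.63, 4.70 and 4.67 CPM in the ref6C libraries, against 1.61, 1.48 and 1.22 CPM in the ref6-3 libraries (1.69 ± 0.13 (SE), adjusted p = 3.8e-11). SAG12, a cysteine protease of late senescence, had 4.16, 3.24 and 3.30 CPM in the ref6C libraries, against 2.02, 1.28 and 1.64 CPM in the ref6-3 libraries (1.12 ± 0.18 (SE), adjusted p = 2.7e-05), and 0 counts in all WT libraries. SAG20 was lower (-0.37 ± 0.047, adjusted p = 4.6e-07). In the salicylate and defence list, 4 of 15 were higher and 6 lower, with a median of -0.08, or -0.28 with FMO1 set to a floor of 3 counts over the ref6-3 group, since both lines were at or under that floor. The pathogenesis-related genes PR2 (1.87, 2.77 and 2.79 CPM in the ref6C libraries, against 0.374, 0.207 and 0.267 CPM in the ref6-3 libraries; 3.12 ± 0.24 (SE), adjusted p = 4.8e-11) and PR5 (1.71 ± 0.17, adjusted p = 7.7e-09) were higher, while the regulators WRKY70 (19.7, 19.6 and 18.6 CPM in the ref6C libraries, against 30.5, 32.2 and 29.4 CPM in the ref6-3 libraries; -0.67 ± 0.048 (SE), adjusted p = 6.2e-12) and EDS1 (-0.53 ± 0.045, adjusted p = 2.3e-10) were lower. The 4 higher members were the PR genes PR1, PR2 and PR5 and the salicylate carrier gene EDS5, of which PR1 and EDS5 are named after their values were seen.

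Of 12 circadian clock genes, 2 were higher and 4 lower, all by less than 2-fold, beside 17.2% higher and 16.8% lower among all tested genes. The morning gene LHY had 8.35, 8.99 and 9.42 CPM in the ref6C libraries, against 13.96, 12.5 and 13.3 CPM in the ref6-3 libraries (-0.57 ± 0.071 (SE), adjusted p = 2.7e-07); PRR9 (-0.32 ± 0.089) and PRR7 (-0.11 ± 0.026) were lower and PRR3 was higher (0.37 ± 0.041, adjusted p = 2.7e-08). The labels give no time of harvest. Of 4 tested heat stress genes 1, HSP70, was called (0.19 ± 0.068), a call that ended without ref6C replicate 3 and in 6 other alternatives. The 2 tested seed maturation genes went apart, with the regulator FUS3 higher (1.13 ± 0.17, adjusted p = 3.8e-06) and the storage protein gene CRA1 lower (-1.07 ± 0.26, adjusted p = 0.0018).

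MRD1 and AT2G01422 were among the 12 genes named by rule on the lower side, and most of the genes next to them differed little. MRD1 on chromosome 1 (19963047 to 19964712 in TAIR10.1, minus strand) had 0.477, 0.541 and 0.579 CPM in the ref6C libraries, against 41.1, 40.2 and 37.0 CPM in the ref6-3 libraries, and 0.236, 0.263 and 0.182 CPM in WT (-6.20 ± 0.10 (SE), adjusted p = 6.5e-26). It shares 1446 bases (19963267 to 19964712) with the meiosis gene HEI10 on the plus strand, which had 7.19, 7.30 and 7.24 CPM in the ref6C libraries, against 22.04, 22.4 and 21.1 CPM in the ref6-3 libraries (-1.59 ± 0.067 (SE), adjusted p = 8.2e-17). Both were high in ref6-3 alone of these 3 groups, and reads of the overlap cannot be told apart if the counting ignored strand. In elf6-3ref6C MRD1 was at 6.32 ± 0.33 CPM and HEI10 at 12.2 ± 0.86 CPM, and in elf6-3ref6Cjmj13G at 1.38 ± 0.12 and 8.50 ± 0.70 CPM (SD, n = 3 each). The genes on either side were nearer to 0: MUM4 was 0.28 ± 0.026 higher, and MSL4 was not called.

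AT2G01422 on chromosome 2 (183940 to 184734) had 5.79, 6.42 and 4.85 CPM in the ref6C libraries, against 75.5, 72.7 and 72.2 CPM in the ref6-3 libraries, and 1.82, 2.08 and 1.93 CPM in WT (-3.69 ± 0.060 (SE), adjusted p = 6.5e-26). Its mean was 24.8 CPM in elf6-3ref6C and 1.37 CPM in elf6-3ref6Cjmj13G. It lies beside the auxin carrier gene PIN4, which was 0.56 ± 0.056 higher (adjusted p = 4.8e-09) and so differed in the opposite direction. The AT14A pair (AT3G28290 and AT3G28300), which has stretches similar to animal integrins, had identical values in every library, 5.55, 5.61 and 4.89 CPM in ref6C, against 0.786, 0.965 and 1.07 CPM in ref6-3 (2.50 ± 0.14 (SE), adjusted p = 4.2e-14). The 2 copies hold 1 signal but are both among the 12 highest genes and in the gene counts. Of the 5 other tested genes around the pair, 4 were higher too, by 0.47 to 1.05 on the log2 scale. ERF15, an ethylene response factor gene, had 5.52, 7.30 and 7.03 CPM in the ref6C libraries, against 1.31, 1.24 and 1.45 CPM in the ref6-3 libraries (2.31 ± 0.15 (SE), adjusted p = 5.8e-13), and the nitrilase gene NIT2 had 6.23, 5.61 and 4.67 CPM in the ref6C libraries, against 1.09, 1.14 and 1.26 CPM in the ref6-3 libraries (2.24 ± 0.15 (SE), adjusted p = 1.7e-12). For AT14A, ERF15 and NIT2, WT was within 1 CPM of ref6-3, and ref6C was the highest of ref6C, ref6-3 and WT. In elf6-3ref6C the mean of AT14A was 5.25 CPM, near that of ref6C. NIT2 lay between WT and ref6C there, at 2.65 CPM, and ERF15 was near WT, at 1.31 CPM. In elf6-3ref6Cjmj13G the means of AT14A, NIT2 and ERF15 were 1.53, 2.196 and 1.19 CPM.

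The remaining genes named by rule were GH9B15, a glycosyl hydrolase (2.43 ± 0.18), ELI3-2, an elicitor-activated gene (2.06 ± 0.15), AT3G22275 (2.44 ± 0.16) and the transposable element gene AT2G04460 (2.40 ± 0.13) on the higher side. On the lower side were FTM1, a fatty acid desaturase gene (-3.58 ± 0.21), AT3G30122, a pseudogene (-2.45 ± 0.15), AT5G24240, a lipid kinase family gene (-2.15 ± 0.054), and the thionin gene THI2.2 (-1.999 ± 0.13). Adjusted p-values ranged between 1.0e-14 and 1.4e-11 for the 4 on the higher side and between 8.9e-22 and 8.6e-13 for the 4 on the lower side.

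**Figure D5:**
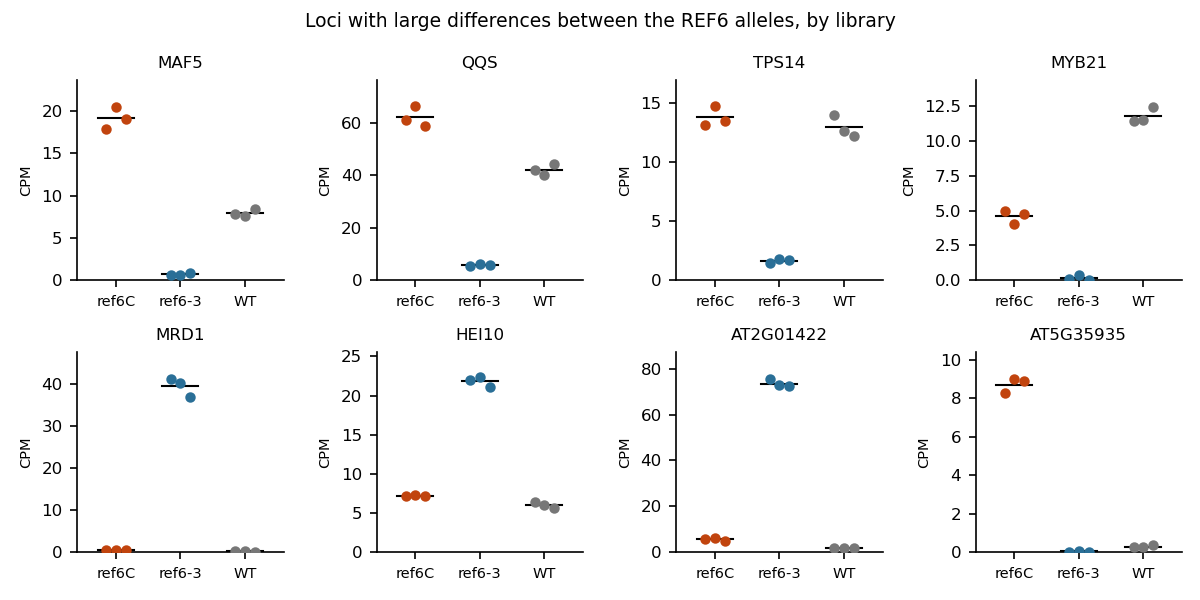
TMM-normalized CPM of 8 loci with large differences in each library of ref6C, ref6-3 and WT; points are libraries, bars are means and each axis starts at 0. MAF5, QQS, TPS14, MYB21 and AT5G35935 were lower in every ref6-3 library than in every ref6C library, and MRD1, HEI10 and AT2G01422 were higher.

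The count of transposable element genes moved with ref6C replicate 3. Of 296 tested, 66 were higher and 38 lower; without that library 41 were higher and 43 lower. In both fits, 25 passed 2-fold upward and 6 downward, which is 10.5% of the class, beside 3.74% of 21481 protein-coding genes and 7.81% of 192 transcribed pseudogenes. The classes were not matched for level. Most of the transposable element genes past 2-fold had low CPM in both lines, so these shares show no trait of the class. AT5G35935 had 8.24, 8.99 and 8.87 CPM in the ref6C libraries, against 0.0374, 0.0689 and 0.0382 CPM in the ref6-3 libraries, and 0.270, 0.263 and 0.363 CPM in WT (log2 fold change 7.36, adjusted p = 1.1e-20). The ref6-3 level of AT5G35935 rests on a few counts, so this fold is known only roughly. Its mean was 6.27 CPM in elf6-3ref6C and 12.1 CPM in elf6-3ref6Cjmj13G. AT3G32240 had 2.08, 1.32 and 1.99 CPM in the ref6C libraries, against 0, 0 and 0.0382 CPM in the ref6-3 libraries, and 0 counts in WT; with 1 count in all of ref6-3 it is given no fold. AT3G32020 went the other way, with 0, 0 and 0.0724 CPM in the ref6C libraries, against 0.561, 0.586 and 0.458 CPM in the ref6-3 libraries. For these 3 genes, named after their values were seen, the groups did not overlap, with or without ref6C replicate 3. AT3G32240 and AT3G32020 passed the filter on low counts only through the line where they were high. Of the 6 tested genes around AT5G35935 on chromosome 5, 3 were called, all higher, by 0.77 to 1.17 on the log2 scale.

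Of 16 microRNA loci tested, 2 were higher and 4 lower in ref6C, with the same counts without ref6C replicate 3. Among all tested genes 17.2% were higher and 16.8% lower. AT1G31173, the locus of MIR167d, a microRNA that targets auxin response factors, had 1.36, 1.76 and 1.56 CPM in the ref6C libraries, against 3.14, 3.24 and 3.05 CPM in the ref6-3 libraries (-1.01 ± 0.14 (SE), adjusted p = 1.5e-06), and is named after its values were seen. By chromosome, 3.46% of the genes tested on chromosomes 1 and 5, 4.14% on chromosome 4, 4.18% on chromosome 2 and 4.35% on chromosome 3 were at least 2-fold apart in both fits. The 6 tested genes nearest to REF6 had log2 fold changes of 0.11 to 0.34, and 4 of them were higher in both fits.

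The other genotypes were placed beside the 864 genes at least 2-fold apart in both fits, with means of log2(CPM + 0.5) and no test. Of the 671 genes higher in ref6C, elf6-3ref6C was nearer to ref6-3 in 569, elf6-3ref6Cjmj13G was nearer to ref6-3 in 553, and WT was nearer to ref6C in 562 (83.8%). Of the 193 genes lower in ref6C, elf6-3ref6C was nearer to ref6-3 in 100, elf6-3ref6Cjmj13G was nearer to ref6C in 131, and WT was nearer to ref6-3 in 149 (77.2%). WT thus sided with the line that had the higher level in both sets of genes. The triple mutant sided with the line that had the lower level in both sets, and elf6-3ref6C did so in the first set. Because the members were chosen by their difference between ref6C and ref6-3, these counts describe where the other genotypes fall and show no relation between the alleles.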

How the data were processed

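The authors deposited 1 table of 33323 genes with whole-number counts per gene and library, not normalized, and FPKM columns made with RSEM, per the file headers; the counts were tested, and the deposited FPKM served only to rank levels within the pollen coat list. Per the submitters' processing notes, STAR, RSEM 1.2.22, DESeq2 and the build TAIR10 were used, with no roles or settings; libraries came from a stranded total RNA kit, per the labels' protocols. The sources used here do not give the division of reads shared between genes, the use of strand in counting, or whether the counts are rounded estimates.

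Counts were fitted with edgeR 4.0.16 in R 4.3.3 (filterByExpr by group, TMM, trended dispersion, quasi-likelihood F-test) over all 15 libraries, with the contrast ref6C minus ref6-3 and Benjamini-Hochberg adjustment over all tested genes. The biological coefficient of variation was 2.51%, so small differences pass the test. CPM are TMM-normalized, ± is SD over 3 libraries for CPM and SE for log2 fold changes, and each SE was derived by dividing the absolute log2 fold change by the root of F. An SE derived so is too small where the fold is large and 1 line has few counts. MAF5, MRD1, MYB21 and MYB24 are such genes. The fit was checked on simulated counts. Each library was counted once. Replicates differed by more than sampling noise (chi-square over degrees of freedom 1.39 to 2.53), which cannot show whether they came from separate plants, since separate library preparations can differ as well.

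The comparison, its 30 gene lists (384 members written, 4 dropped because the reference gives another symbol, 356 tested) and the rule for named genes were chosen with earlier results of these data known. The rule takes REF6, ELF6 and JMJ13, the 12 largest differences each way among nuclear genes called with and without ref6C replicate 3 with a mean log2-CPM of 1 or more and no overlap of libraries, and up to 4 called members of each list by adjusted p; members not called and overlapping or neighbouring genes could be given too. Symbols, positions and promoters (250 bases before the annotated start) came from RefSeq TAIR10.1; 32835 of 33323 identifiers matched. Alternatives were RLE size factors, DESeq2 1.42.0, 2 other filters, a fit of 6 libraries, a replicate block, and each of the 6 libraries left out.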

Additional observations from a re-analysis of the deposited data

How the results depend on the processing

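With 1 library left out at a time, 3037 to 3486 genes were higher and 3226 to 3539 lower in ref6C than in ref6-3, with 701 to 807 and 205 to 264 of them at least 2-fold. The balance at any size turned to more lower than higher genes without ref6C replicate 3 (3119 and 3539), without ref6-3 replicate 3 (3037 and 3532), with RLE size factors (3670 and 3933), with DESeq2 (2837 and 3043) and with no filter (3693 and 4091); genes at least 2-fold higher outnumbered those lower in all 12 alternatives. The 1 CPM filter gave 587 and 150 genes at least 2-fold apart, and no filter 1050 and 241. A fit of the 6 libraries alone gave 686 and 202, beside 782 and 222 in the main fit. The median of all tested genes was 0.002 and stayed within -0.010 and 0.021 in the alternatives. Same-numbered libraries did not deviate together (r = -0.096, -0.040 and -0.053). No pairing by number was thus seen, but replicates this close could hide a shared harvest or batch. A replicate block gave 3746 and 3656 genes, 774 and 217 at least 2-fold, and ended 0 calls of genes named by rule. Of the calls of genes named by rule under the alternatives, 41 ended, 1 was gained (ELF6 with no filter) and 0 changed direction; these cover the genes named by rule and not DYT1 and MYB101, whose calls ended without ref6C replicate 3. Those that ended belong to REF6, JMJ30, VIN3, SDC, MAF2, KNAT6, ZYP1a, MSH4, DAZ1, BR6OX2, BRI1 and HSP70. The cause was not tested. Counts near 0, as in some sperm cell, PR, stamen MYB and transposable element genes, limit how finely their folds are known.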
